A study of Mus musculus with 6 samples.

Results

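Oxidative phosphorylation genes of the mouse heart are described here: the nuclear genes for subunits of the respiratory chain and ATP synthase, read in hearts of 2 transgenic lines and of controls. Members were chosen by a rule on gene symbols that uses no signal, although the gene group was proposed with earlier results of these data known. A gene was a member where a probe set with a single gene symbol carried the name of a complex I subunit (Ndufa, Ndufb, Ndufc, Ndufs or Ndufv with a number), a complex II subunit (Sdha to Sdhd), Cyc1 or a symbol starting with Uqcr (complex III), a symbol starting with Cox4 to Cox8 (complex IV), a symbol starting with Atp5 (complex V), or cytochrome c (Cycs). This gave 82 genes of the 18193 with such a probe set: 34 of complex I, 4 of complex II, 9 of complex III, 17 of complex IV, 17 of complex V, and Cycs. They were covered by 168 probe sets, and the probe set of highest mean signal stood for each gene. The symbol rule also took in Cox7a2l, which is known as a factor that joins complexes III and IV into supercomplexes and not as a subunit of the isolated enzyme.

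The respiratory chain passes electrons from NADH and succinate through complexes I and II, ubiquinone, complex III and cytochrome c to complex IV, where oxygen is reduced. Complexes I, III and IV pump protons out of the mitochondrial matrix, and complex V lets them return to make ATP. The heart draws most of its ATP from this process, its cardiomyocytes are packed with mitochondria, and several complex IV subunits have a heart and muscle form beside a form found in most tissues.

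Total heart RNA of 6 samples was hybridised to Affymetrix arrays, 2 arrays in each of 3 groups. The first group was RKIP-transgenic, with RKIP driven by the alpha-MHC promoter, which is active in cardiomyocytes. The second was GRK-Inh-transgenic, with a peptide inhibitor of G protein-coupled receptor kinases made in the myocardium by a promoter that the labels do not name. The third group was B6 control mice. All 6 samples came from male mice aged 2 months on a B6 background, and the labels name 1 line per transgene, so a line and its transgene cannot be told apart. Nothing in the labels ties the 2 arrays of a group to different mice, so the spread behind each p-value is that between these arrays and may be technical. Signals are in the arbitrary units of the deposited table, and the small number of arrays limits the precision.

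Markers of the labelled tissue were bright: all 8 cardiomyocyte markers were tested, with a summed signal of 240289 and 236893 on the RKIP arrays, 232061 and 232392 on the GRK-Inh arrays, and 246605 and 239850 on the B6 arrays. Of these, 1 (Actc1) was lower in RKIP hearts and 0 changed in GRK-Inh hearts. Pebp1, the mouse gene for RKIP, averaged 9121 ± 27.4 in RKIP hearts, 9187 ± 153 in GRK-Inh hearts and 9029 ± 372 in B6 hearts (SD, n = 2 each), so its signal did not separate the arrays labelled RKIP from the others (limma, adjusted p = 0.866 against B6), and the labels do not say whether the probe set reads the transgene. Some markers of other cells were called too, by the test described next. Over all genes tested, that test called 5.51% lower in RKIP and 7.27% lower in GRK-Inh hearts, against B6. Beside these shares, a single call in a short list says little. Among fibroblast markers, 5 of 7 were lower in RKIP hearts and 6 of 7 in GRK-Inh hearts, with summed signals of 31215 and 30924 (RKIP), 28915 and 28151 (GRK-Inh), and 37449 and 39041 (B6). Smooth muscle markers were lower for 3 of 4 in RKIP hearts and 1 of 4 in GRK-Inh hearts, against B6, with summed signals of 6157 and 6040 (RKIP), 7498 and 7685 (GRK-Inh), and 8727 and 8385 (B6). Endothelial markers were lower for 2 of 5 in RKIP and 1 of 5 in GRK-Inh hearts, and macrophage markers for 1 of 5 in RKIP and 2 of 5 in GRK-Inh hearts. White adipocyte markers had the largest median log2 fold change of these lists, -0.85 over the 2 tested in RKIP over B6 hearts, with Adipoq lower in RKIP than in B6 and in GRK-Inh hearts and 0 called in GRK-Inh over B6 hearts. Their summed signals were 163 and 167 (RKIP), 558 and 406 (GRK-Inh), and 420 and 448 (B6). Of 2 brown adipocyte markers tested, Cidea was higher in RKIP than in B6 and in GRK-Inh hearts, and the other, Dio2, was not called. The median log2 fold change over the 2 was 0.07 in RKIP over B6 and -0.05 in RKIP over GRK-Inh hearts, so they did not rise together. No marker of any list was at a signal of 0, but Lep and Cidec of white fat, Ucp1, Elovl3 and Zic1 of brown fat and 5 of 6 skeletal muscle markers lay below the filter described next. The ratio of the actin probe set near the end of the transcript to that near its start, a measure of RNA quality, was 2.92 and 2.96 in RKIP, 3.03 and 3.0 in GRK-Inh, and 3.25 and 3.11 in B6. The part of these cell and RNA differences in the results that follow was not tested, and in whole hearts fewer cells of a type and less RNA per cell cannot be told apart.

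A gene was tested where its mean log2 value over the 6 arrays reached 6.65, the median over all probe sets, which is a signal of 50.2. Of the 82 members, 80 were tested. The exceptions were Ndufb4, an accessory complex I subunit with a mean signal of 22.6, and Cox7b2, the testis form of a complex IV subunit, with a mean signal of 24.3. Ndufb4 is read here from its 1 probe set with a single symbol. Another probe set, which it shares with Ndufb4b and Ndufb4c, was left out. In all, 9 probe sets that pair a symbol of the rule with others were left out. The complex I genes Ndufa11 and Ndufs6 had only such shared probe sets, so they are not among the members. Fold changes are differences of log2(signal + 50), which understates the change of dim probe sets. Calls were made with limma (two-sided), with p-values adjusted over all 11254 genes tested by Benjamini and Hochberg's method, at an adjusted p under 0.05. Whether groups overlap is given below for named genes as a description. It comes from the same arrays as the call and is no further test. The share of all genes without overlap is not given.

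The promoters of the 4 members called lower in RKIP than in B6 hearts are shown because nuclear respiratory genes are known to share binding motifs for a few factors, which the next paragraph counts. Each line holds the 250 bases before the gene's start from the RefSeq promoter table (build GRCm38.p6), written 5′ to 3′ on the gene's strand, and capitals mark a motif match that lies wholly within it. All 4 genes lie on the minus strand: Cox6a1 at chr5:115348959-115349208, Cox7a2l at chr17:83514334-83514583, Uqcr11 at chr10:80406822-80407071 and Sdhd at chr9:50603850-50604099, each interval being the bases printed.
Cox6a1: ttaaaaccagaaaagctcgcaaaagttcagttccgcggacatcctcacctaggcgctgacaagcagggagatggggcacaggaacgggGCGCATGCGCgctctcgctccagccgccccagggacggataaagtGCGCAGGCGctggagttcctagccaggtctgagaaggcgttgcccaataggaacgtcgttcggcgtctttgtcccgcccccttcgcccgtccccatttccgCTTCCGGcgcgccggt
Cox7a2l: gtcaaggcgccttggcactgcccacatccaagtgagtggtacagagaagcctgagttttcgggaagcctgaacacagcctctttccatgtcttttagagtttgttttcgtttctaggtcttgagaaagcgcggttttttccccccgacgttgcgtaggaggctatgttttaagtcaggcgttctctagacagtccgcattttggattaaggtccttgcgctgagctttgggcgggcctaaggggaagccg
Uqcr11: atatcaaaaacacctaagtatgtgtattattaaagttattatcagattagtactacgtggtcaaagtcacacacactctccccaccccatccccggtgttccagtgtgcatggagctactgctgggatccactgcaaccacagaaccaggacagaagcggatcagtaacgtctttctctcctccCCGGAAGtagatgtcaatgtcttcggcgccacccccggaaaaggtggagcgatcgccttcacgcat
Sdhd: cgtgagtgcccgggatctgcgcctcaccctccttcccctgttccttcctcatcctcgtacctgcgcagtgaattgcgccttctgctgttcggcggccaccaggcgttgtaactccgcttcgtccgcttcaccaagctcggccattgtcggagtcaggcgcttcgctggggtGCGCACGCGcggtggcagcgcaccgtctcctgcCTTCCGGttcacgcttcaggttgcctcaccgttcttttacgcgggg

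The motifs searched were GCGCANGCG (bound by NRF1), CCGGAAG (bound by GABP and other ETS factors), TCAAGGTCA (bound by estrogen-related receptors) and AAGATGGCG (bound by YY1), on either strand of the 300 bases from 250 before to 50 after the start. RefSeq promoters were matched by Entrez gene identifier for 67 of the 82 members. A GCGCANGCG match stood in 28.4% of these members, 15.4% of the other genes tested and 7.03% of all genes in the promoter table. For CCGGAAG the shares were 25.4% of members, 19.7% of other tested genes and 9.93% of all genes, and for AAGATGGCG 8.96%, 3.62% and 1.64%. TCAAGGTCA stood in 2 of the 67 members (2.99%), against 0.321% of other tested genes and 0.466% of all genes. Of the 4 promoters printed, that of Cox6a1 held 3 GCGCANGCG matches, of which 2 overlap on opposite strands, and 1 CCGGAAG match. Sdhd held a GCGCANGCG and a CCGGAAG match, plus a TCAAGGTCA match after the start that is not printed. Uqcr11 held a CCGGAAG match and a GCGCANGCG match that spans the start and is left in lower case. None of the 4 motifs stood in the Cox7a2l window. A match describes letters in a window and says nothing of binding in these hearts.

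Probe sets of the members were bright. A mean signal above 10000 was reached by 68 members and above 20000 by 30, and the highest signal of any gene on an array lay between 37546 and 41679. Signals of different probe sets are not levels on a common scale, so members are compared with themselves across groups. Uqcrb, a complex III subunit, gave 41679 and 38498 on the RKIP arrays, 38910 and 37546 on the GRK-Inh arrays, and 39773 and 40701 on the B6 arrays, with overlap between the RKIP and B6 groups. Whether signals this close to the top of an array's range respond in proportion to RNA was not tested. Brightness came with small errors: the median SE of a member's log2 fold change was 0.037, against 0.115 over all genes tested.

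Summed over the 80 tested members, the signal was 6.03% and 5.93% of each RKIP array's total, 5.83% and 5.79% of each GRK-Inh array's total, and 6.03% and 5.97% of each B6 array's total. The GRK-Inh arrays were the low pair, and the RKIP and B6 arrays overlapped. Complex by complex, the GRK-Inh arrays lay below the B6 arrays for complexes I, II, III, IV and V, while the RKIP arrays overlapped the B6 arrays for complexes I, II, III and V and lay just below them for complex IV. For complex IV the shares were 1.11% and 1.10% in RKIP, 1.08% and 1.07% in GRK-Inh, and 1.12% and 1.12% in B6. For complex V they were 1.51% and 1.49% in RKIP, 1.46% and 1.45% in GRK-Inh, and 1.52% and 1.51% in B6. Complex I, which pumps protons with electrons from NADH, held 2.26% and 2.21% in RKIP, 2.17% and 2.17% in GRK-Inh, and 2.23% and 2.19% in B6.

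**Figure D1:**
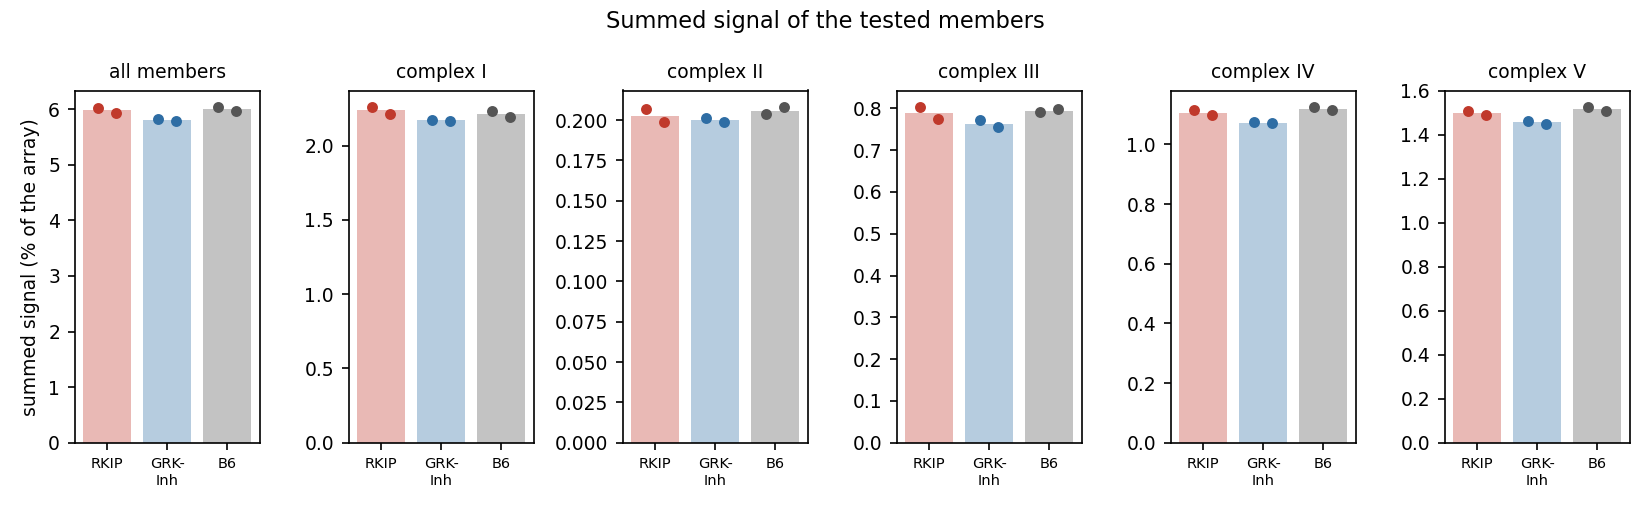
Summed signal of the tested members as a percent of each array's total signal, for all members and for complexes I to V (y axes start at 0 and differ between panels). Points are arrays and bars are means of 2 arrays. For all members the GRK-Inh arrays stood at 5.83% and 5.79%, below the RKIP arrays (6.03% and 5.93%) and the B6 arrays (6.03% and 5.97%).

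The first comparison sets RKIP-transgenic hearts against B6 hearts as the control. In RKIP hearts nearly all subunit transcripts lay close to the control. Sdhd, Uqcr11, Cox6a1 and Cox7a2l fell, with changes of -9.31% (Uqcr11) to -17.5% (Cox7a2l) in signal, and no member rose. That is 0 higher and 4 lower of 80 tested (5.0%), where limma called 10.8% of all genes tested, 5.32% higher and 5.51% lower. At an unadjusted p under 0.05, 5 members were higher and 7 lower. The median log2 fold change of the members was -0.0069, and that of all genes tested was -0.0165. The 95% interval of the log2 fold change lay within 0.5 of 0 for 77 members, the exceptions being Cox4i2, Cox6b2 and Ndufb1, and within 0.25 of 0 for 74.

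The medians of the complexes lay close to 0 in this comparison. Complex I had a median log2 fold change of 0.020 in RKIP over B6 hearts, with 0 of its 33 tested members called by limma and 2 higher and 2 lower at an unadjusted p under 0.05. Its 6 core members, Ndufs1, Ndufs3, Ndufs7, Ndufs8, Ndufv1 and Ndufv2, which carry electrons from NADH to ubiquinone, ranged from -0.019 to 0.061. Complex II had a median of 0.0020 with 1 of 4 lower, complex III -0.020 with 1 of 9 lower, and complex IV -0.021 with 2 of 16 lower. Complex V had a median of -0.0074 with 0 of 17 called, and 1 higher and 1 lower at an unadjusted p under 0.05. These calls rest on the brightest probe set of each gene. A second probe set of the complex V gene Atp5d, picked after its values were seen, was lower when tested on its own with limma (-0.23 ± 0.04, SE, adjusted p = 0.00620). The brightest Atp5d probe set gave -0.12. Under quantile normalization the complex IV median was 0.0007, the median of all members was 0.0127 without RKIP array 2, and complex II gave -0.1152 with probe sets averaged and -0.0583 to 0.0407 without single arrays, so none of these medians has a settled sign.

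Cox7a2l, the supercomplex factor, gave signals of 4515 and 4809 on the RKIP arrays, 4594 and 4714 on the GRK-Inh arrays, and 5717 and 5605 on the B6 arrays. Every array of either transgenic line lay below both B6 arrays, and the lines overlapped each other. Its log2 fold change over B6 was -0.28 ± 0.05 (SE, adjusted p = 0.00385) in RKIP hearts and -0.28 ± 0.05 (adjusted p = 0.00263) in GRK-Inh hearts. Laboratory mouse strains are known to carry different forms of this gene. The labels give a B6 background for all groups, and which form each group carries was not tested. Of its other probe sets, 1 was also lower in RKIP than in B6 (-0.26) and the other gave 0.07, while in GRK-Inh they gave -0.29 and -0.24.

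Sdhd, a membrane anchor of complex II, gave 9206 and 9135 on the RKIP arrays, 9575 and 9584 on the GRK-Inh arrays, and 10329 and 10318 on the B6 arrays. The 3 groups did not overlap, with B6 highest. Sdhd fell in RKIP hearts by 0.17 ± 0.04 on the log2 scale (SE, adjusted p = 0.0125), and in GRK-Inh hearts its log2 fold change was -0.11 ± 0.04 (adjusted p = 0.0740), which missed the threshold. The dimmer Sdhd probe set, tested on its own with limma, gave -0.21 ± 0.15 in RKIP over B6 hearts (adjusted p = 0.476). As a mean over its probe sets, Sdhd gave -0.19 (limma, adjusted p = 0.245). The call in RKIP hearts therefore rests on the brighter probe set. The other members of the complex were not called in any comparison: Sdhb, its iron-sulfur subunit, had log2 fold changes over B6 of 0.01 in RKIP and -0.02 in GRK-Inh hearts, and Sdhc, the other anchor, -0.0084 and -0.10.

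Cox6a1, the form of its complex IV subunit found in most tissues, gave 13588 and 13629 on the RKIP arrays, 13012 and 13034 on the GRK-Inh arrays, and 15812 and 14585 on the B6 arrays. Both lines lay below B6 without overlap, and the B6 arrays were the most spread. The log2 fold change over B6 was -0.16 ± 0.04 (SE, adjusted p = 0.0355) in RKIP hearts and -0.22 ± 0.04 (adjusted p = 0.00519) in GRK-Inh hearts. Uqcr11, a small complex III subunit, gave 18724 and 17828 on the RKIP arrays, 17963 and 17984 on the GRK-Inh arrays, and 20434 and 19872 on the B6 arrays. It was again highest in B6, without overlap. Its log2 fold change over B6 was -0.14 ± 0.04 (adjusted p = 0.0301) in RKIP and -0.16 ± 0.04 (adjusted p = 0.0116) in GRK-Inh hearts.

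**Figure D2:**
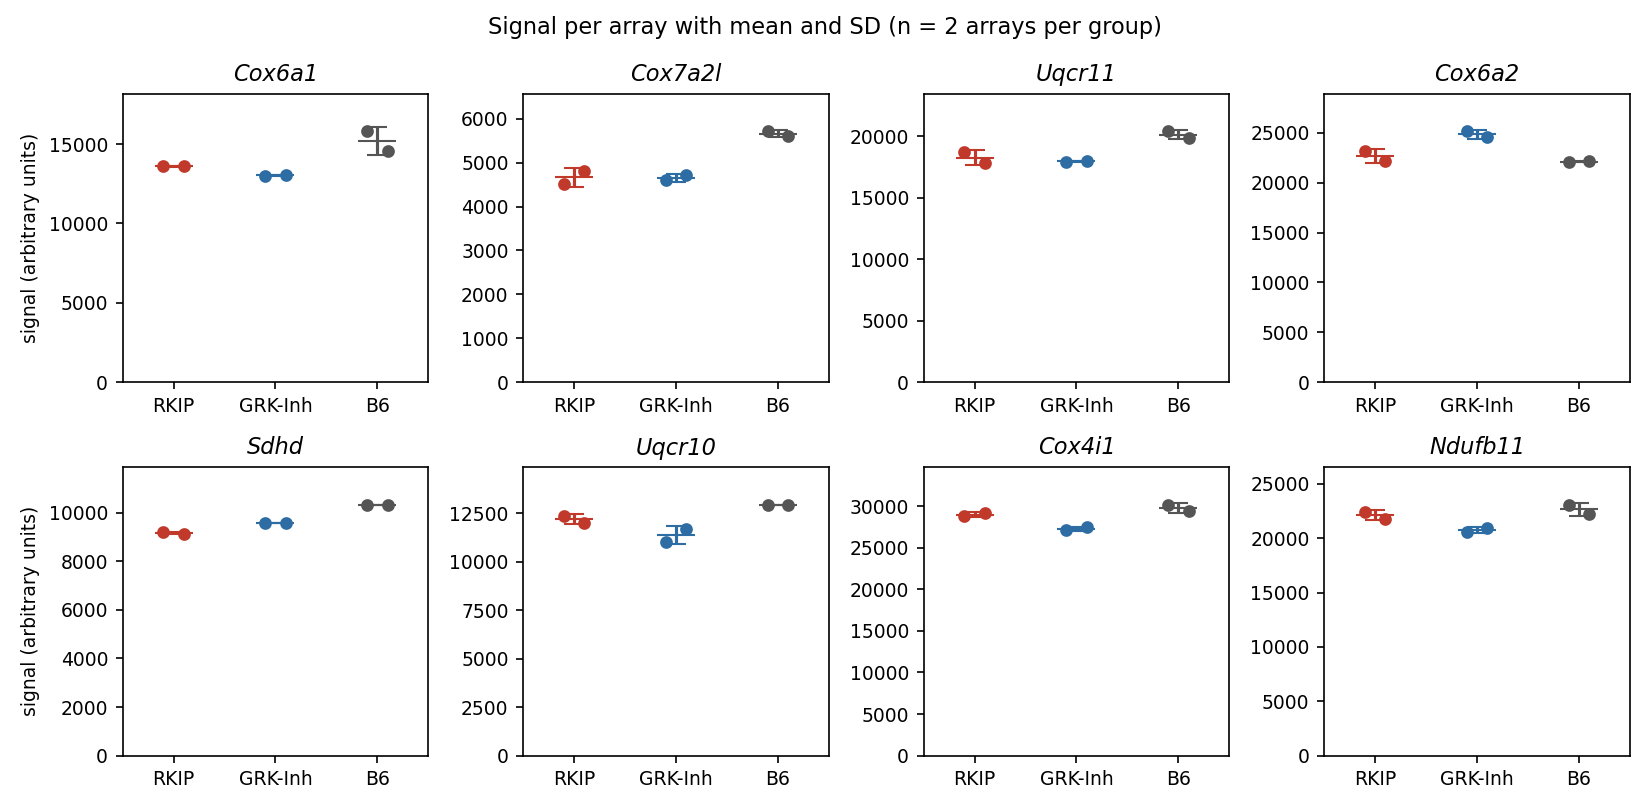
Signal per array (arbitrary units, y axis from 0) of 8 members in RKIP, GRK-Inh and B6 hearts, with the mean and SD of 2 arrays per group. Cox6a1, Cox7a2l, Uqcr11 and Sdhd lie below B6 on every RKIP array, Uqcr10, Cox4i1 and Ndufb11 lie below B6 on both GRK-Inh arrays, and Cox6a2 is highest on the GRK-Inh arrays (25164 and 24535).

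Of the 4 falls in RKIP hearts, Cox7a2l kept an adjusted p under 0.05 without each array in turn (0.00729 to 0.0348). Cox6a1 lost it without RKIP array 1 (0.134), RKIP array 2 (0.112) or B6 array 1 (0.171), Uqcr11 without RKIP array 2 (0.185), B6 array 1 (0.134) or B6 array 2 (0.0593), and Sdhd without RKIP array 1 (0.0563), RKIP array 2 (0.0674) or B6 array 1 (0.0503). With the spread modelled without its trend over signal, no member was lower, and 2 were lower without the filter, in a fit of only RKIP and B6 arrays, or with each array shifted to a common median.

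**Figure D3:**
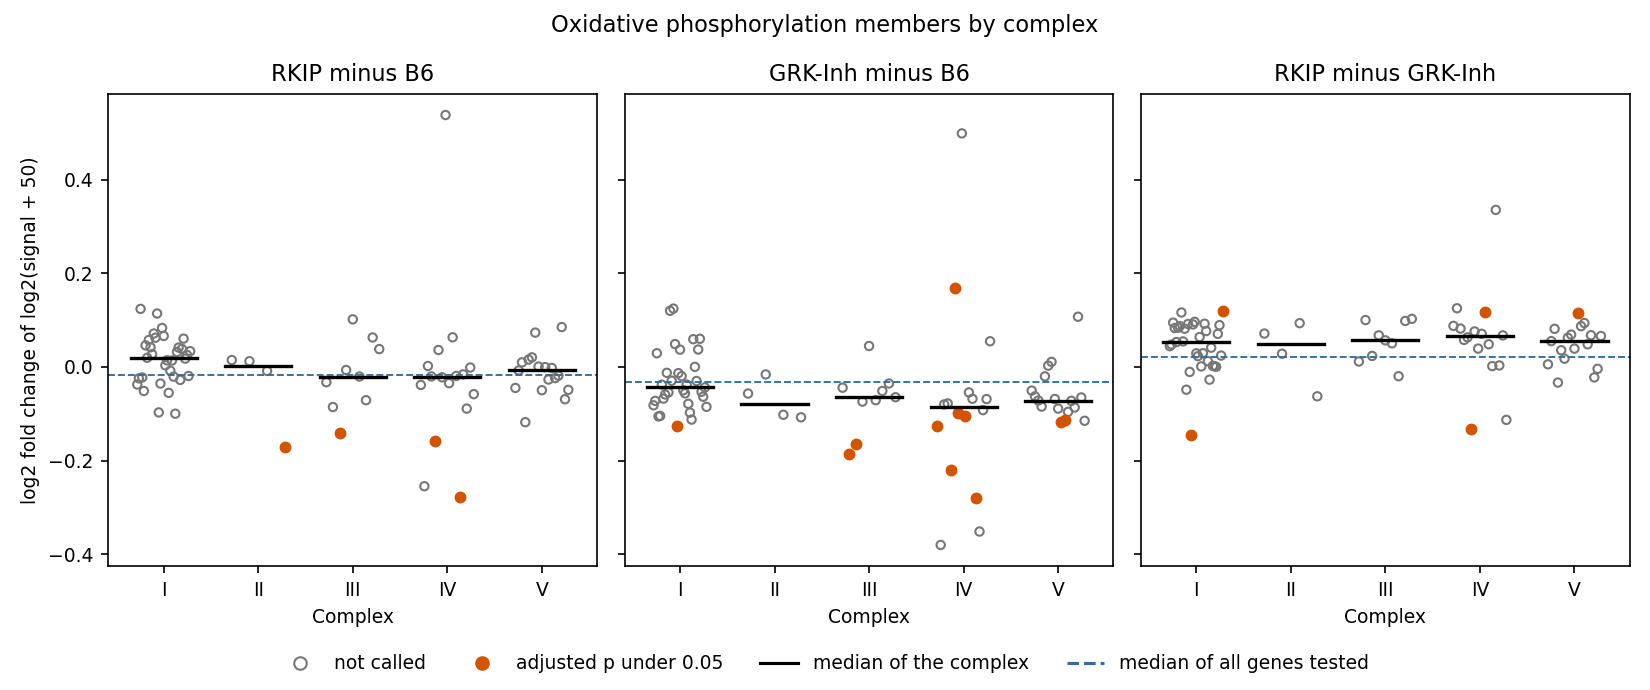
Log2 fold change of each tested member by complex, in RKIP over B6, GRK-Inh over B6 and RKIP over GRK-Inh hearts. Filled points have an adjusted p under 0.05, bars are medians of the complexes, and the dashed line is the median of all genes tested (-0.0165, -0.031 and 0.021). Called members stand mostly below the line in GRK-Inh over B6, where complex IV holds 5 lower and 1 higher.

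The second comparison sets GRK-Inh-transgenic hearts against the same B6 arrays. The values of the 2 lines thus share their controls and are set side by side only. In GRK-Inh hearts Cox6a2, the heart and muscle form of its complex IV subunit, rose, and Cox7a2l, Cox6a1, Uqcr10, Uqcr11, Cox4i1, Ndufb11, Atp5j, Atp5j2, Cox6c and Cox6b1 fell, with changes of -6.56% (Cox6b1) to -17.6% (Cox7a2l) in signal. That is 1 higher and 10 lower of 80 tested (13.8%), where limma called 13.1% of all genes tested, 5.86% higher and 7.27% lower, so the share of members called was near the background. The log2 fold change was negative for 64 of the 80 members. Their median was -0.065, and that of all genes tested was -0.031. The 95% interval lay within 0.5 of 0 for 76 members, the exceptions being Cox4i2, Cox6b2, Cox7c and Ndufb1.

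The median log2 fold change of complex IV in GRK-Inh over B6 hearts was -0.086, with 5 lower and 1 higher of 16 tested and Cox7a2l among the 5. Complex V had a median of -0.072 with 2 of 17 lower, complex III -0.065 with 2 of 9 lower, and complex I -0.044 with 1 of 33 lower. Complex II had a median of -0.079 with 0 of 4 called by limma and 1 lower at an unadjusted p under 0.05. Read from the brightest probe set of each gene, the complex I core members ranged from -0.063 to 0.060 and none was called. Ndufs8 among them had the widest gap of any member between its tested probe sets in this comparison, 0.65 on the log2 scale. The median of all members stayed negative under both other scalings, but was nearer 0: -0.0185 with quantile normalization, where that of all genes was -0.0157, and -0.0201 with arrays shifted to a common median, where that of all genes was 0.0134. Complex I gave 0.0010 under that shift.

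Among complex IV subunits, Cox4i1, the common form of its subunit, gave 28776 and 29190 on the RKIP arrays, 27098 and 27439 on the GRK-Inh arrays, and 30176 and 29358 on the B6 arrays. The GRK-Inh arrays were the lowest pair, and no groups overlapped. Its log2 fold change over B6 was -0.13 ± 0.03 (SE, adjusted p = 0.020) in GRK-Inh and -0.04 ± 0.03 (adjusted p = 0.483) in RKIP hearts. Cox6b1 and Cox6c, both structural subunits, had log2 fold changes of -0.10 (adjusted p = 0.0468) and -0.11 (adjusted p = 0.0396) in GRK-Inh over B6 hearts. Cox6c had a second probe set with a larger difference, at 13857 and 16339 on the RKIP arrays, 13010 and 13928 on the GRK-Inh arrays, and 18311 and 17452 on the B6 arrays. Tested on its own, it gave -0.41 ± 0.07 in GRK-Inh over B6 hearts (SE, adjusted p = 0.00324).

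In complex III, Uqcr10, a small subunit like Uqcr11, gave 12380 and 12013 on the RKIP arrays, 11041 and 11715 on the GRK-Inh arrays, and 12950 and 12935 on the B6 arrays. The GRK-Inh arrays were again lowest, with no overlap between groups. Its log2 fold change over B6 was -0.19 ± 0.04 (SE, adjusted p = 0.0106) in GRK-Inh and -0.09 ± 0.04 (adjusted p = 0.210) in RKIP hearts, and its dimmest tested probe set gave 0.01 in GRK-Inh. Ndufb11, an accessory subunit in the membrane arm of complex I, gave 22445 and 21781 on the RKIP arrays, 20579 and 20940 on the GRK-Inh arrays, and 23080 and 22247 on the B6 arrays. GRK-Inh lay below B6 without overlap, while RKIP and B6 overlapped. The fall was 8.37% in signal (log2 fold change -0.13 ± 0.03, adjusted p = 0.0339), and the other 2 probe sets of Ndufb11 gave -0.16 and -0.20 in the same comparison. Atp5j, in the peripheral stalk of ATP synthase, and Atp5j2, in its membrane part, changed by -7.75% and -7.59% in signal (adjusted p = 0.0349 and 0.0420).

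Without each array in turn, Cox7a2l (0.0155 to 0.0287) and Cox6a1 (0.00353 to 0.0413) kept an adjusted p under 0.05 in GRK-Inh over B6 hearts. Cox6a2 lost it without GRK-Inh array 1 (0.0881), Uqcr10 without GRK-Inh array 1 (0.118), B6 array 1 (0.0530) or B6 array 2 (0.0505), and Uqcr11 without GRK-Inh array 1 (0.0800), GRK-Inh array 2 (0.0739) or B6 array 1 (0.0686). Cox4i1, Ndufb11 and Atp5j2 lost it without GRK-Inh array 1 (0.149, 0.197 and 0.129), GRK-Inh array 2 (0.0946, 0.113 and 0.227) or B6 array 1 (0.0877, 0.147 and 0.163). Atp5j, Cox6b1 and Cox6c lost it without any of the 4 arrays (0.0707 to 0.219). The count of lower members was 3 under either other scaling and 0 with the spread modelled without its trend.

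The complex IV subunits with tissue forms were read in pairs within each array. Cox6a2 gave 23183 and 22172 on the RKIP arrays, 25164 and 24535 on the GRK-Inh arrays, and 22063 and 22152 on the B6 arrays. The GRK-Inh arrays were highest without overlap. Its log2 fold change over B6 was 0.17 ± 0.03 (SE, adjusted p = 0.00777) in GRK-Inh and 0.04 ± 0.03 (adjusted p = 0.559) in RKIP hearts. The log2 difference of Cox6a2 and Cox6a1 was 0.77 and 0.70 on the RKIP arrays, 0.95 and 0.91 on the GRK-Inh arrays, and 0.48 and 0.60 on the B6 arrays, so the 2 genes changed unequally. A second Cox6a2 probe set did not show this: it gave 18863 and 20701 on the RKIP arrays, 16835 and 18405 on the GRK-Inh arrays, and 19150 and 17308 on the B6 arrays, with a log2 fold change of -0.05 ± 0.06 in GRK-Inh over B6 hearts. The rise of Cox6a2 therefore rests on 1 of its 2 probe sets.

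The Cox7a and Cox8 pairs were read in the same way. Cox7a1, the heart and muscle form, minus Cox7a2, the common form, was -0.27 and -0.25 on the RKIP arrays, -0.31 and -0.36 on the GRK-Inh arrays, and -0.35 and -0.34 on the B6 arrays. Cox8b, the heart and muscle form in rodents, minus Cox8a was 2.49 and 2.48 in RKIP, 2.35 and 2.49 in GRK-Inh, and 2.41 and 2.39 in B6. None of Cox7a1, Cox7a2, Cox8a and Cox8b was called in either line against B6. The forms known from other tissues were dim: Cox4i2, a lung form, had signals of 103 and 41.7 on the RKIP arrays, 61.3 and 56.1 on the GRK-Inh arrays, and 103 and 81.0 on the B6 arrays. Cox6b2, a testis form, had 65.3 and 71.3 on the RKIP arrays, 63.4 and 66.7 on the GRK-Inh arrays, and 28.1 and 34.96 on the B6 arrays. It lay above B6 on every transgenic array, but its log2 fold changes of 0.54 ± 0.18 (adjusted p = 0.0898) in RKIP and 0.50 ± 0.18 (adjusted p = 0.0983) in GRK-Inh hearts missed the threshold. Cox8c, another testis form, had log2 fold changes over B6 of -0.06 ± 0.13 in RKIP and 0.05 ± 0.13 in GRK-Inh hearts.

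Other members with several gene copies did not pass the test against B6. The c-ring of ATP synthase is encoded by Atp5g1, Atp5g2 and Atp5g3, whose log2 fold changes over B6 were 0.02, 0.07 and 0.0009 in RKIP hearts and 0.0029, 0.01 and -0.07 in GRK-Inh hearts. Ndufa4, long counted in complex I and since found in complex IV, gave 0.02 in RKIP and -0.07 in GRK-Inh hearts, and moving it to complex IV left both medians within the spread between arrays. Cycs, the mobile carrier between complexes III and IV, gave 33476 and 36632 on the RKIP arrays, 33848 and 35379 on the GRK-Inh arrays, and 37932 and 36224 on the B6 arrays. Its log2 fold changes over B6 of -0.08 ± 0.04 in RKIP and -0.10 ± 0.04 in GRK-Inh hearts missed the threshold (adjusted p = 0.283 and 0.170). In GRK-Inh hearts Cycs did not overlap with B6, and in RKIP hearts it did.

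The third comparison sets the lines against each other and so tests directly whether they differ. Atp5j, Cox7a1 and Ndufv3 were higher and Ndufb10 and Cox6a2 lower in RKIP than in GRK-Inh hearts. That is 3 higher and 2 lower of 80 (6.25%), where limma called 8.82% of all genes tested, 4.47% higher and 4.35% lower. The log2 fold change was positive for 69 of the 80 members, with a median of 0.056, against 0.021 for all genes tested. With quantile normalization the members' median was 0.0192, against 0.0128 for all genes, and with arrays shifted to a common median 0.0163, against -0.0184 for all genes. Complex medians ran from 0.050 (II) to 0.065 (IV), but for complex III quantile normalization gave -0.0086. Intervals of 78 members lay within 0.5 of 0, the exceptions being Cox4i2 and Cox7c.

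Ndufb10, in the membrane arm of complex I, gave 14264 and 14394 on the RKIP arrays, against 15852 and 15867 on the GRK-Inh arrays, with 15555 and 15107 on the B6 arrays. The lines did not overlap, and the log2 fold change of RKIP over GRK-Inh was -0.15 ± 0.03 (SE, adjusted p = 0.0237). Cox7a1 gave 25174 and 25403 on the RKIP arrays, against 23212 and 23392 on the GRK-Inh arrays, a log2 fold change of 0.12 ± 0.03 (adjusted p = 0.0450). Ndufv3, an accessory subunit at the NADH-binding end of complex I, gave 18923 and 18423 on the RKIP arrays, against 17272 and 17110 on the GRK-Inh arrays (0.12 ± 0.03, adjusted p = 0.0481). For Atp5j the signals were 23198 and 22643 on the RKIP arrays, against 21359 and 20923 on the GRK-Inh arrays (0.12 ± 0.03, adjusted p = 0.0470). The lines did not overlap in any of these genes, which were named because they were called on the same arrays. Cox6a2 was lower in RKIP by -0.13 on the log2 scale (adjusted p = 0.0379), and its second probe set gave 0.17. Ndufb10, Cox7a1, Ndufv3 and Atp5j lost the call without any of the 4 arrays (adjusted p = 0.0860 to 0.261) and Cox6a2 lost it without RKIP array 2 (0.213), GRK-Inh array 1 (0.236) or GRK-Inh array 2 (0.113). The 3 higher members were not called with the arrays rescaled in either way or without the filter.

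Dimmer probe sets of the same genes were read too, each tested on its own, a choice made after the data were seen. Of 150 member probe sets tested, 0 were higher and 14 lower in RKIP than in B6 hearts, 1 higher and 15 lower in GRK-Inh than in B6 hearts, and 3 higher and 2 lower in RKIP than in GRK-Inh hearts. Over all 19771 probe sets tested in this way, 8.19%, 10.9% and 6.08% were called in the same comparisons. Among 45 genes with several tested probe sets, the median gap between the highest and lowest log2 fold change was 0.083, 0.073 and 0.086 in these comparisons. The widest gap in RKIP over B6 hearts was 0.71, for Ndufb8, an accessory complex I subunit. Its bright probe set gave -0.0080, and a dim one gave 74.3 and 85.2 on the RKIP arrays, 124 and 186 on the GRK-Inh arrays, and 181 and 146 on the B6 arrays, with a log2 fold change of -0.72 ± 0.18 (adjusted p = 0.0339). Ndufs4, an accessory subunit known for its part in complex I disease, gave -0.03 for the bright probe set, 0.05 for a dimmer one and -0.56 ± 0.09 (adjusted p = 0.00484) for another, with 388 and 398 on the RKIP arrays, 551 and 543 on the GRK-Inh arrays, and 568 and 637 on the B6 arrays. These 2 genes were chosen after their values were seen.

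Several regulators of respiratory genes passed the test, in either direction. The list was taken up with earlier results of these data known, so its counts are a description. Of 19 regulators tested, 7 were higher and 1 lower in RKIP than in B6 hearts, and 6 higher and 2 lower in GRK-Inh than in B6 hearts, with median log2 fold changes of 0.20 and 0.16, where 10.8% and 13.1% of all genes were called. Among the rises, Polrmt, Lrpprc and Esrrg lost their calls with the spread modelled without its trend. Polrmt in RKIP and Esrrg in GRK-Inh hearts also lost them with quantile normalization or without the filter. Without single arrays, log2 fold changes in RKIP hearts ran from 0.19 to 0.32 (Polrmt), 0.20 to 0.24 (Lrpprc) and 0.25 to 0.36 (Esrrg). Those of Esrrg in GRK-Inh hearts ran from 0.17 to 0.28. Ppargc1a, a coactivator that drives mitochondrial biogenesis, gave 3320 and 3508 on the RKIP arrays, 4448 and 4822 on the GRK-Inh arrays, and 2820 and 3052 on the B6 arrays. The groups did not overlap, with GRK-Inh highest. Its log2 fold change over B6 was 0.21 ± 0.06 (SE, adjusted p = 0.0429) in RKIP and 0.65 ± 0.06 (adjusted p = 5.03e-05) in GRK-Inh hearts, and RKIP lay below GRK-Inh by -0.44 ± 0.06 (adjusted p = 0.00125). In RKIP over B6 hearts the call was lost without each of the 4 arrays (adjusted p = 0.0572 to 0.223), and the dimmest Ppargc1a probe set gave -0.05.

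Ppargc1b, its relative, went down in either line: it gave 1791 and 1777 on the RKIP arrays, 2303 and 2225 on the GRK-Inh arrays, and 2980 and 2888 on the B6 arrays. The groups did not overlap, with RKIP lowest. The log2 fold change over B6 was -0.70 ± 0.05 (SE, adjusted p = 1.65e-05) in RKIP and -0.37 ± 0.05 (adjusted p = 0.00105) in GRK-Inh hearts, and both calls held under every alternative tried. Perm1, a muscle gene induced by these coactivators, gave 2121 and 2485 on the RKIP arrays, 2346 and 2338 on the GRK-Inh arrays, and 1660 and 1540 on the B6 arrays. Every transgenic array lay above B6, with log2 fold changes of 0.51 ± 0.07 (adjusted p = 0.00166) in RKIP and 0.54 ± 0.07 (adjusted p = 0.000855) in GRK-Inh hearts. As a mean over all its probe sets, Perm1 gave -0.0056 in RKIP and 0.19 in GRK-Inh hearts and was not called.

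Ppara, a nuclear receptor of fatty acid use, had log2 fold changes over B6 of 0.38 ± 0.08 (adjusted p = 0.0101) in RKIP and 0.55 ± 0.08 (adjusted p = 0.000886) in GRK-Inh hearts. In RKIP hearts it lost the call without RKIP array 2 (0.0544) or B6 array 1 (0.0745). Tfb2m, a factor of mitochondrial transcription, gave 0.38 ± 0.06 (adjusted p = 0.00166) in RKIP and 0.24 ± 0.06 (adjusted p = 0.0154) in GRK-Inh hearts, the second lost without GRK-Inh array 2 (0.128), B6 array 1 (0.0540) or B6 array 2 (0.0827). Gabpa, the DNA-binding part of GABP, was lower in GRK-Inh than in B6 hearts by -0.30 ± 0.06 (adjusted p = 0.00993), a call lost without GRK-Inh array 1 (0.0599) or B6 array 2 (0.0565), and its dimmest tested probe set gave 0.30. Beside these, the middle of the 80 members stayed between -0.04 and 0.03 in RKIP and between -0.10 and -0.02 in GRK-Inh hearts, as quartiles of the log2 fold change over B6.

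**Figure D4:**
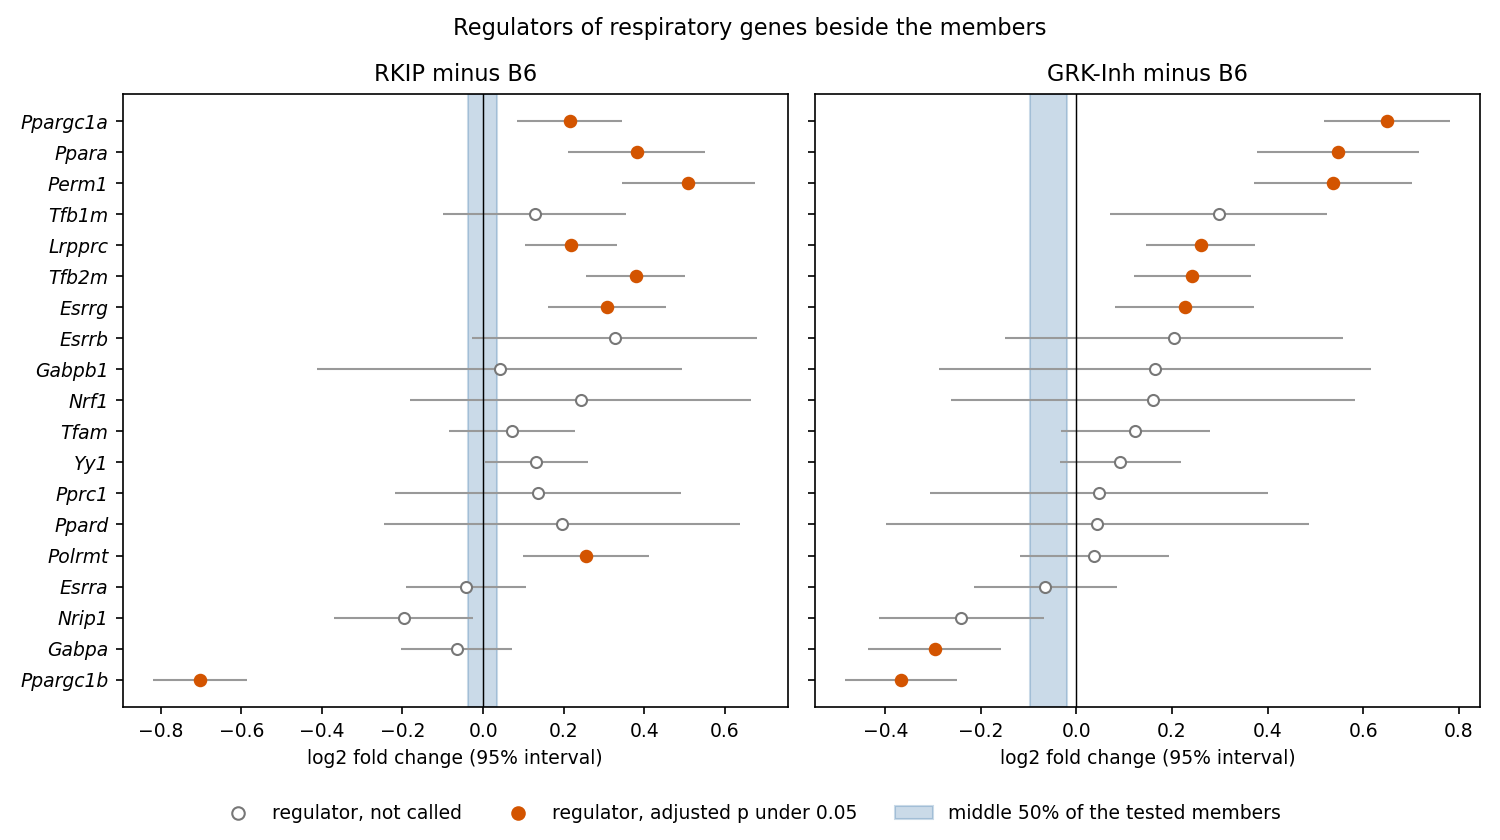
Log2 fold change over B6 with its 95% interval for 19 regulators of respiratory genes in RKIP and GRK-Inh hearts. Filled points have an adjusted p under 0.05, and the shaded band is the range between the quartiles of the 80 tested members (-0.04 to 0.03 in RKIP, -0.10 to -0.02 in GRK-Inh). Ppargc1a, Ppara, Perm1, Lrpprc, Tfb2m and Esrrg lie right of the band in both panels, and Ppargc1b lies left of it.

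Assembly factors, which build the complexes but are not part of them, were tested for 42 genes. In RKIP hearts 5 were higher and 2 lower than in B6, with a median log2 fold change of 0.02, and in GRK-Inh hearts 1 was higher and 1 lower, with a median of 0.07. Over all genes tested, 10.8% and 13.1% were called in these comparisons. Surf1, needed for complex IV assembly, gave 1511 and 1537 on the RKIP arrays, 1372 and 1352 on the GRK-Inh arrays, and 1183 and 1190 on the B6 arrays. The groups did not overlap, with B6 lowest, and the log2 fold change in RKIP hearts was 0.35 ± 0.06 (SE, adjusted p = 0.00423). Cox17, which carries copper to complex IV, gave 11928 and 12210 on the RKIP arrays, 11069 and 10960 on the GRK-Inh arrays, and 10356 and 10383 on the B6 arrays. It was 0.22 ± 0.04 higher in RKIP than in B6 hearts (adjusted p = 0.00319), and 0.12 as a mean over its probe sets, which was not called. Pet100 and Coa5, also of complex IV assembly, were higher in RKIP hearts by 0.40 and 0.18 (adjusted p = 0.0400 and 0.0303), while Cox15, which makes heme A, and Cox20 were lower by -0.37 and -0.18 (adjusted p = 0.0248 and 0.0155). Coa5 (adjusted p = 0.0810 to 0.146) and Cox20 (0.0588 to 0.0772) lost the call without any of the 4 arrays. Pet100 lost it without RKIP array 1 (0.126), RKIP array 2 (0.124) or B6 array 2 (0.213), with log2 fold changes of 0.21 to 0.58 over the 4 fits, and Cox15 without RKIP array 1 (0.152) or B6 array 2 (0.178). In GRK-Inh hearts Ttc19, a complex III factor, was higher by 0.37 (adjusted p = 0.00862), and Sdhaf1, a complex II factor, was lower by -0.32 (adjusted p = 0.0261). Ttc19 lost the call without GRK-Inh array 2 (0.0567) or B6 array 2 (0.0644), and Sdhaf1 without GRK-Inh array 1 (0.156), B6 array 1 (0.147) or B6 array 2 (0.0586).

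Of the 13 subunits encoded by mitochondrial DNA, 1 was found by name among the probe sets with a single gene symbol: ND5, a complex I core subunit. It gave 34849 and 33276 on the RKIP arrays, 33391 and 31152 on the GRK-Inh arrays, and 34812 and 33393 on the B6 arrays. RKIP and B6 overlapped, while both GRK-Inh arrays lay below both B6 arrays by a small margin. The log2 fold changes over B6 were -0.0018 ± 0.04 (adjusted p = 0.987) in RKIP and -0.08 ± 0.04 (adjusted p = 0.224) in GRK-Inh hearts. The other mitochondrial subunits were not analysed here.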

How the data were processed

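Mouse heart RNA was read on 6 Affymetrix arrays of 1 colour. The deposited values were probe set intensity values on a linear scale, made by the authors with GCOS per the submitters' processing notes, its version not given in the sources used here. Their 2% trimmed mean was 300.002 on every array, so the arrays had been scaled to a common level, and no further normalization was applied. Of 45101 probe sets, 64 were controls, 34945 had a single gene symbol in the platform annotation, 932 several and 9160 none. The annotation can be old; all 82 members matched the RefSeq gene table.

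Values were taken as log2(intensity + 50) and fitted over all 3 groups with lmFit and eBayes (trend) in limma 3.58.1 and R 4.3.3, with 3 residual and 7.60 prior degrees of freedom, for genes with a mean log2 of at least 6.65. The procedure was tested on simulated data. Summaries and figures were made in Python 3.11.15 with pandas 2.3.3 and matplotlib 3.10.9. Genes were named by a rule: called members (at most 12 each way per comparison), the brightest and dimmest member of a complex, tissue forms, members below the filter, up to 6 called genes per other list by size of change, Pebp1 and Ppargc1a. Members and lists were chosen with earlier results of these data known. Arrays with the same replicate number did not deviate together (correlations of 0.0258, -0.0298 and -0.035), so the numbers were not used as pairs. Alternatives covered the scaling, filter, offset, choice of probe set, variance model, replicate block and leaving out each array.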

Additional observations from a re-analysis of the deposited data

How the results depend on the processing

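With 2 arrays in a group, fits that leave out an array assume that the lone array varies like the other groups, and signals near the top of the array's range may not be in proportion to RNA, which was not tested. The log offsets, robust moderation, the place of Ndufa4 and leaving out non-subunits changed none of the results recomputed under them. Replicate numbers did not pair the arrays; with the replicate number as a block, 0 members were higher in RKIP than in GRK-Inh hearts (replicate block, 0 against 3), and no other count of members moved by over 1.5 times, while Cox6b1 and Cox6c lost their calls in GRK-Inh against B6.

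Over GRK-Inh against B6, quantile normalization gave medians of -0.0185 (all members), -0.0092 (complex I), -0.0155 (III), -0.0249 (IV) and -0.0233 (V). A shift to a common median gave -0.0201, 0.0010 (I), -0.0346 (II), -0.0199 (III), -0.0413 (IV) and -0.0269 (V). Complex II gave -0.1403 as a mean over probe sets and -0.2383 from the dimmest. Higher members numbered 2 with the stricter filter, 2 with probe sets averaged, 0 with the dimmest and 3 after the shift, and lower members 4 without filter, 3 with quantiles, 3 after the shift and 0 without the trend. Calls over all genes, in both directions, numbered 1473 of 6801 (stricter filter), 1053 of 10453 (averaged) and 863 of 11254 (dimmest). They numbered 1111 of 18193 (no filter), 1464 of 11251 (quantiles), and 1494 (shift) and 731 (no trend) of 11254.

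For RKIP against B6, complex II gave -0.1152 (averaged) and -0.1297 (dimmest), and complex IV 0.0007 (quantiles). Higher members numbered 1 (averaged), 1 (quantiles) and 1 (no trend), and lower members 2 (no filter), 2 (only the compared arrays), 9 (dimmest), 2 (shift) and 0 (no trend). Over all genes, calls in both directions numbered 624 of 11254 (dimmest), 756 of 10453 (averaged) and 840 of 18193 (no filter). They numbered 1215 of 11251 (quantiles), and 1116 (only the compared arrays), 1098 (shift) and 297 (no trend) of 11254. The fit reported called 1219 of 11254.

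For RKIP against GRK-Inh, quantiles gave 0.0192 (all members), 0.0307, 0.0215, -0.0086, 0.0212 and 0.0091 for complexes I to V, and the shift 0.0163, 0.0133, 0.0101, 0.0171, 0.0255 and 0.0154. Complexes II and III gave 0.0682 and 0.0248 averaged, and 0.0754 and 0.0236 from the dimmest. Higher members numbered 5 averaged and 0 with no filter, quantiles, the shift, no trend or, in an alternative chosen after seeing the data, each probe set tested on its own. Lower members numbered 1 in that last alternative and 0 with no filter or no trend. Of all genes, 618 of 10453 (averaged), 617 of 18193 (no filter) and 962 of 11251 (quantiles) were called, in both directions. Of 11254 genes, 918 (shift), 255 (no trend) and 804 (each probe set on its own) were called.

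Without each array in turn, GRK-Inh against B6 gave -0.0897 to -0.0305 (complex II), -0.0983 to -0.0482 (III), 0 to 2 higher and 2 to 8 lower. RKIP against B6 gave -0.0188 to 0.0127 (all members), -0.0583 to 0.0407 (II), -0.0402 to -0.0047 (IV), 0 to 1 higher and 1 to 3 lower. RKIP against GRK-Inh gave 0.0006 to 0.077 (II), 0 to 1 higher and 0 to 1 lower.

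Signs turned for these genes, and the cause was not tested. From the dimmest probe set, GRK-Inh against B6 gave -0.0485 (Cox6a2), -0.1454 (Esrrg), 0.3028 (Gabpa, averaged 0.0030), 0.0136 (Phb2), 0.0270 (Tomm22), -0.1023 (Ttc19) and 0.0118 (Uqcr10). RKIP against B6 gave 0.2390 (Afg3l2, averaged 0.0560), 0.0707 (Cox7a2l), 0.1566 (Dlst), 0.0223 (Idh3a), -0.0536 (Ppargc1a) and 0.2553 (Tomm22, averaged 0.0023), and Perm1 averaged -0.0056. RKIP against GRK-Inh gave 0.1664 (Cox6a2, averaged 0.0172) and 0.2015 (Ttc19). Over all genes, the fit without the trend called 297, 731 and 255 of 11254 genes in RKIP against B6, GRK-Inh against B6 and RKIP against GRK-Inh, where the fit reported called 1219, 1477 and 993.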

Other observations

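Other mitochondrial genes were tested in the same fit, which called 10.8% of all genes in RKIP over B6 and 13.1% in GRK-Inh over B6 hearts. Of 17 genes of the citrate cycle and pyruvate dehydrogenase, 1 was higher and 4 lower in RKIP than in B6 hearts, and 2 higher and 2 lower in GRK-Inh than in B6 hearts. Dlat, the E2 subunit of pyruvate dehydrogenase, gave 5498 and 5487 on the RKIP arrays, 6097 and 6163 on the GRK-Inh arrays, and 6629 and 6578 on the B6 arrays. The groups did not overlap, with RKIP lowest (log2 fold change over B6 of -0.26 in RKIP, limma adjusted p = 0.00196), and the call held without each array (0.0139 to 0.0163). Pdhb, an E1 subunit, had log2 fold changes over B6 of -0.13 (adjusted p = 0.0336) in RKIP and -0.18 (adjusted p = 0.00513) in GRK-Inh hearts, the first lost without each array (0.0731 to 0.147) and the second without GRK-Inh array 1 (0.0735). Ckm, muscle creatine kinase, was the only called gene of 10 for ATP export and phosphate transfer, at -0.13 in GRK-Inh over B6 hearts (adjusted p = 0.0220), a call lost without each array (0.0638 to 0.140).

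Of 17 genes of mitochondrial import and protein quality control, 1 was higher and 4 lower in RKIP than in B6 hearts, and 0 higher and 2 lower in GRK-Inh than in B6 hearts, against 10.8% and 13.1% of all genes called. Hspd1, the matrix chaperone HSP60, gave 7255 and 7064 on the RKIP arrays, 9271 and 9247 on the GRK-Inh arrays, and 8620 and 8289 on the B6 arrays. RKIP was lowest and GRK-Inh highest, without overlap, and the log2 fold change of RKIP over GRK-Inh was -0.37 (limma adjusted p = 0.000251). Phb2, a prohibitin of the inner membrane, gave 5323 and 5571 on the RKIP arrays, 3399 and 4035 on the GRK-Inh arrays, and 6067 and 5504 on the B6 arrays. GRK-Inh lay below B6 without overlap (-0.64, adjusted p = 0.000295), and the dimmest Phb2 probe set gave 0.01. Ndufa4l2, a relative of Ndufa4 that the symbol rule did not take in, gave 104 and 79.6 on the RKIP arrays, 106 and 79.4 on the GRK-Inh arrays, and 48.0 and 15.4 on the B6 arrays. Its log2 fold changes over B6 were 0.82 (adjusted p = 0.0418) in RKIP and 0.83 (adjusted p = 0.0350) in GRK-Inh hearts, at signals near the filter. Both calls were lost without 3 of the 4 arrays: in RKIP hearts without RKIP array 1 (0.203), RKIP array 2 (0.0747) or B6 array 2 (0.231), and in GRK-Inh hearts without GRK-Inh array 1 (0.188), GRK-Inh array 2 (0.0665) or B6 array 2 (0.201). Without single arrays the log2 fold change ran from 0.53 to 1.11 in RKIP and from 0.54 to 1.12 in GRK-Inh hearts.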
